A study of Setaria viridis with 11 samples.

Results

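Transcripts of the abscisic acid (ABA) biosynthesis pathway were followed in leaves of *Setaria viridis*, a C4 grass, after long-term heat stress. They are 7 of the 40599 transcript identifiers that each count file lists, and all 7 were found. Their names follow the study's drawing of the ABA pathway, where each has a gene identifier of its own, so that transcripts with the same name are separately annotated genes and not splice forms. They comprise ZEP (Si011685m), NCED1 (Si021680m), AAO4 (Si028685m and Si028687m), AAO2 (Si028698m) and AAO1 (Si033946m and Si033914m). Members were chosen by their count differences between heat-stressed and control plants, with the AAO2 transcript and Si033914m added as aldehyde oxidases, so the differences between these groups are given as a description, without a test. The other transcripts of that drawing, among them further ZEP and NCED transcripts, were not analysed here. No step of the pathway is therefore described as a whole.

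The samples were leaves of 11 plants of genotype A10, labelled as wild type, 6 of them heat stressed and 5 of them controls. All plants grew under the same conditions for their first 2 weeks. Heat was then applied for 2 weeks in another growth chamber, set to a day temperature of 42 °C and a night temperature of 32 °C. Controls remained at 28 °C in the day and, by the labels, at 20 °C in the night. All leaves were taken on day 28, and RNA came from the middle parts of fully expanded leaves, which were pooled. Since each condition had its own chamber, an effect of the chamber and an effect of temperature cannot be told apart.

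ABA is made from carotenoids. In the chloroplast, zeaxanthin epoxidase (ZEP) turns zeaxanthin into violaxanthin, and 9-cis-epoxycarotenoid dioxygenase (NCED) then cleaves epoxycarotenoids to xanthoxin, a step known in many plants as the main point of control. Xanthoxin is converted in the cytosol to abscisic aldehyde, which aldehyde oxidases (AAO), enzymes with a molybdenum cofactor, oxidise to ABA. In Arabidopsis it is AAO3 that is best known for this last step, and its relatives also act on other aldehydes. The hormone closes stomata and turns on stress genes in leaves under water shortage.

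Sequencing gave 34731849 to 47441261 counts per heat-stressed plant and 34362084 to 54011056 per control plant. The plastid transcript psbA (Si020824m), which encodes a photosystem II core protein, took 46.1% to 48.5% of the counts of a heat-stressed plant and 61.8% to 69.6% of those of a control plant, and the other 4 leaf markers (Rubisco large and small subunit, LHCB3 and phosphoenolpyruvate carboxylase) were counted in every plant. With TMM factors all 5 markers were lower under heat, with log2 fold changes of -2.08 to -0.61. Their summed level was 332496 to 394769 CPM in heat-stressed plants and 825623 to 1238197 CPM in control plants. Most of that sum was psbA, and without it the sum was 21426 to 33570 CPM in heat-stressed and 42204 to 46847 CPM in control plants. With library size only, the Rubisco large subunit and phosphoenolpyruvate carboxylase were instead higher under heat. The part of these markers in the members' values was not tested. Levels are given as CPM, the count scaled to a common library size, with TMM factors, which allow for such differences in composition, and they depend on that choice. If plants are scaled by library size only, the median of all tested transcripts is 1.07 higher on the log2 scale in heat-stressed plants, against 0.02 with TMM factors. Reads that aligned to several places made up 20.2% to 30.8% of all reads in the files of heat-stressed plants and 15.4% to 59.1% in those of control plants, with the highest share in control plant 2. Such reads were not counted, so reads shared by near-identical aldehyde oxidase genes would be lost, and whether this touched the members was not tested. In whole leaves, fewer cells of a type and less RNA per cell cannot be told apart.

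All 7 members passed the filter on low counts, and 5 were higher and 2 lower under heat at an adjusted p under 0.05 in edgeR's quasi-likelihood test. Of the 18065 tested transcripts 63.1% passed by the same rule, 32.2% higher and 30.9% lower, and since that comparison chose the members nothing is read from their count. With library size only, 13216 transcripts were higher and 1385 lower. The median log2 fold change, heat over control, was 1.01 for the members and 0.02 for all tested transcripts. Members were chosen by this comparison, so nothing is read from that difference either. In 5 members the CPM of the 2 groups did not overlap, as in 44.9% of all tested transcripts (23.5% higher and 21.4% lower). The exceptions were ZEP (Si011685m) and AAO1 (Si033946m). With library size only, the groups of these 2 were apart and only those of Si033914m overlapped. NCED1 had the smallest log2 fold change in size among the members with TMM factors, and Si033914m with library size only.

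**Figure D1:**
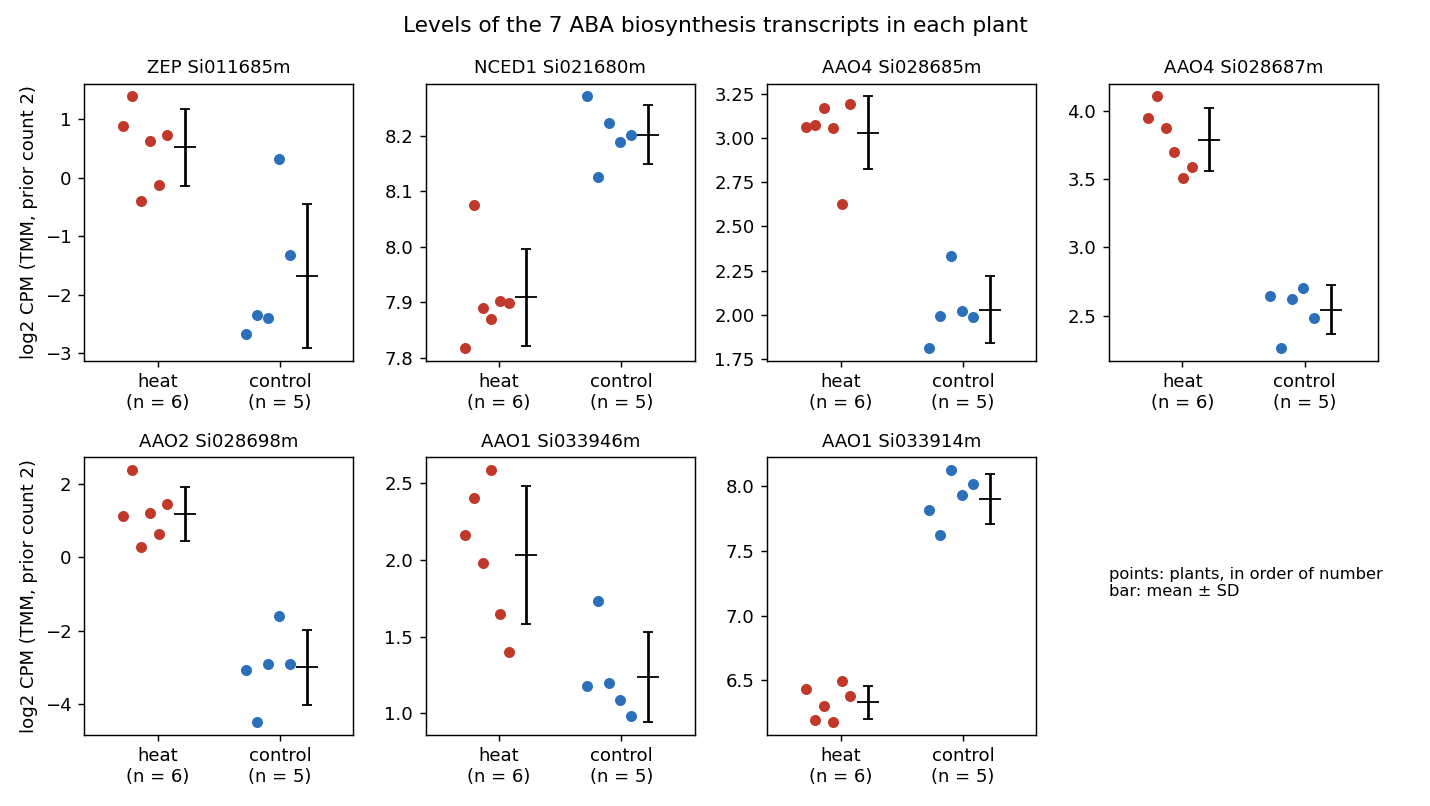
Levels of the 7 transcripts as log2 CPM (TMM factors, prior count of 2) in 6 heat-stressed plants, left in each panel, and 5 control plants, right; points are plants and bars show the mean ± SD. The groups are apart in 5 panels, with heat-stressed plants above in Si028685m, Si028687m and Si028698m and below in NCED1 and Si033914m (with library size only NCED1 is higher under heat), while they overlap in ZEP and Si033946m.

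For the epoxidase step only the ZEP transcript Si011685m was followed, and this transcript was scarce. It had 43 to 168 counts per heat-stressed plant and 3, 3, 5, 42 and 12 counts in control plants 1 to 5. Its level was 0.715 CPM at the lowest, 1.56 at the median and 2.58 at the highest in heat-stressed plants, against 0.113, 0.152, 0.146, 1.20 and 0.356 CPM in control plants 1 to 5. Control plant 4 lay inside the range of the heat-stressed plants, above heat-stressed plants 3 and 5, and the other 4 control plants lay below all of them. With library size only the groups were just apart, at 0.953 CPM in control plant 4 and 0.988 CPM in heat-stressed plant 3. With TMM factors the log2 fold change was 1.86 (SE 0.53), and without control plant 4 it was 2.91 (SE 0.46), or 7.53-fold in place of 3.64-fold. On counting error alone the ratio of 3.56 from the summed counts had a 95% interval of 2.75 to 4.68, which is narrower than the spread between plants.

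NCED1 (Si021680m), the only transcript followed for the cleavage step, was abundant and even. With 11810 to 17569 counts per heat-stressed plant and 5526 to 10246 per control plant, it had the most counts of the 7 members in every plant. The level ran from 225.5 through a median of 238.0 to 269.9 CPM in heat-stressed plants, against 309.0, 279.3, 298.8, 291.9 and 294.4 CPM in control plants 1 to 5. The groups were apart, but the lowest control plant stood only 1.03 times above the highest heat-stressed plant, number 2.

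The log2 fold change of NCED1 was -0.29 (SE 0.08), a level in heat-stressed plants 0.817 times that in controls. The sign turned with the scaling, since with library size only the change was 0.76 (SE 0.13), with 337.3 CPM in heat-stressed plants and 199.0 CPM in control plants on that scale. Relative to the median of all tested transcripts it was -0.32 with TMM factors and -0.31 with library size only, so that the direction of its absolute level depended on the scaling. NCED1 was no longer past the threshold when no filter on low counts was used, when 10 counts were required in every plant, or with single reads only.

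At the last step, the 5 aldehyde oxidase transcripts went both ways. AAO1 Si033914m had 3654 to 5760 counts per heat-stressed plant and 3894 to 9579 per control plant. Its level was 72.4 CPM at the lowest, 81.0 at the median and 90.0 at the highest in heat-stressed plants, against 225.8, 196.8, 279.3, 244.3 and 259.8 CPM in control plants 1 to 5. Every heat-stressed plant was below every control plant, by at least 2.19 times. The log2 fold change was -1.58 (SE 0.10), or 0.334 times the control level. With library size only it was -0.55 (SE 0.15), and the groups then overlapped.

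AAO1 Si033946m, which carries the same name, lay far lower and moved the other way. The level was 2.59 CPM at the lowest, 4.17 at the median and 5.96 at the highest in heat-stressed plants, against 2.22, 3.29, 2.25, 2.08 and 1.93 CPM in control plants 1 to 5. Control plant 2 lay above heat-stressed plants 5 and 6, and the other control plants lay below all heat-stressed plants. With library size only the groups were apart, at 1.89 CPM in control plant 2 and 3.46 CPM in heat-stressed plant 6. With TMM factors the log2 fold change was 0.85 (SE 0.22), and 0.98 (SE 0.22) without control plant 2. That plant had the highest share of reads aligned to several places.

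The pair of AAO4 transcripts was more even. Si028685m had 6.13, 8.35 and 9.09 CPM at the lowest, median and highest heat-stressed plant, against 3.46, 3.94, 4.99, 4.02 and 3.91 CPM in control plants 1 to 5. Si028687m had 11.3, 13.8 and 17.2 CPM at the same points, against 6.21, 4.75, 6.12, 6.47 and 5.55 CPM in control plants 1 to 5. For both, every heat-stressed plant was above every control plant. The log2 fold changes were 1.01 (SE 0.13) for Si028685m and 1.25 (SE 0.13) for Si028687m. Within a plant the log2 ratio of Si028687m to Si028685m counts was 0.76 ± 0.22 (SD, n = 6) in heat-stressed plants and 0.52 ± 0.25 (SD, n = 5) in control plants, and the groups overlapped. This ratio was chosen after the values were seen.

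AAO2 (Si028698m) had 70 to 337 counts per heat-stressed plant, and was almost uncounted in control plants, with 2, 0, 3, 10 and 3 counts in plants 1 to 5. Its level was 1.16 CPM at the lowest, 2.21 at the median and 5.18 at the highest in heat-stressed plants, against 0.0753, 0, 0.0875, 0.285 and 0.0890 CPM in control plants 1 to 5. The groups were apart, with heat-stressed plant 2 and control plant 4 the highest of their groups.

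The fitted log2 fold change of AAO2 was 4.37 (SE 0.54), and 5.11 (SE 0.60) without control plant 4, or 34.6-fold in place of 20.7-fold. With so few counts in the controls the fitted value is uncertain, and how far it depends on a prior count was not tested. DESeq2 gave a log2 fold change of 4.46 (SE 0.52). From the summed counts, 882 in heat-stressed and 18 in control plants, the ratio was 21.2 with a 95% interval of 13.3 to 35.9, which covers counting error only. A higher log2 fold change was found for 1.26% of all tested transcripts, but nothing is read from this rank. With 0 to 10 counts in control plants, AAO2 passed the filter on low counts through its heat-stressed plants. It was left out when 10 counts were required in every plant.

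**Figure D2:**
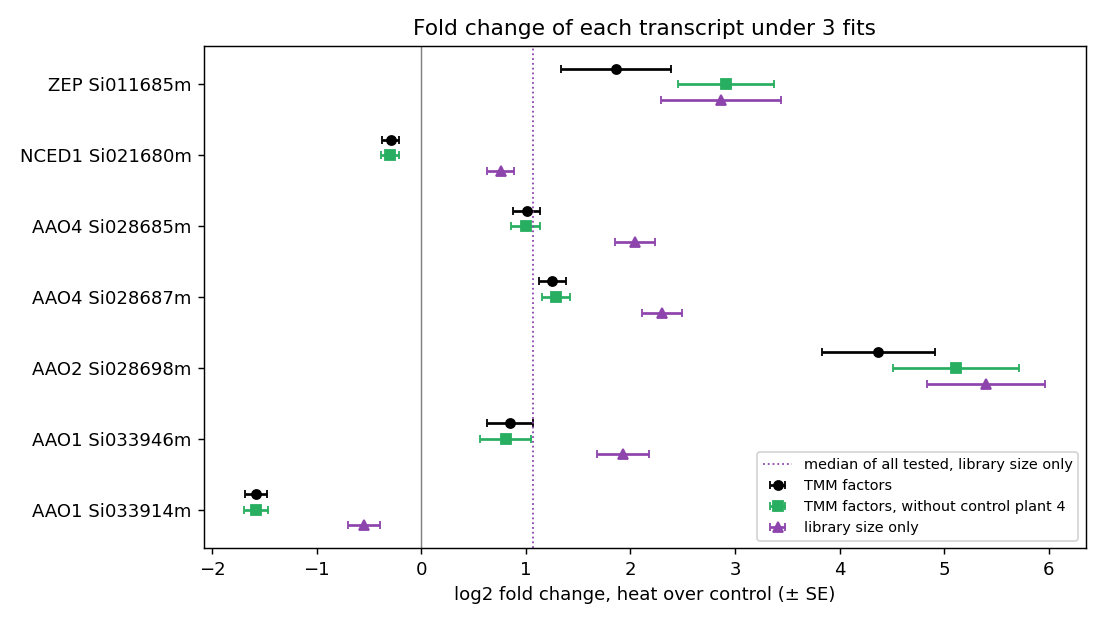
Log2 fold change of each transcript, heat over control, with its SE on the horizontal axis, for TMM factors, TMM factors without control plant 4, and library size only; the dotted line is the median of all tested transcripts with library size only, at 1.07. Leaving out control plant 4 shifts ZEP and AAO2, and library size only moves every transcript to the right and takes NCED1 across 0.

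Shares within a plant do not depend on the scaling between plants, and they showed an exchange among the aldehyde oxidases. Of the counts on the 5 transcripts, Si033914m held 73.6% ± 4.49 (SD, n = 6) in heat-stressed plants and 95.1% ± 0.563 (SD, n = 5) in control plants, a difference of -21.5 percentage points. The lowest, median and highest heat-stressed plants had 67.0%, 73.7% and 80.3%, and control plants 1 to 5 had 95.0%, 94.3%, 95.4%, 95.0% and 95.8%. Si033914m thus still held most aldehyde oxidase counts in every heat-stressed plant. Counts were not divided by transcript length, so these are shares of reads and not of molecules.

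The AAO4 pair held most of the share that Si033914m lacked, in heat-stressed as in control plants. The share of Si028687m was 12.7% ± 2.01 in heat-stressed plants and 2.31% ± 0.252 in control plants. That of Si028685m was 7.50% ± 1.10 in heat-stressed plants and 1.61% ± 0.187 in control plants. Si033946m had 3.87% ± 1.29 in heat-stressed plants and 0.959% ± 0.353 in control plants (SD, n = 6 heat-stressed and 5 control plants for each share). AAO2 reached 1.08% to 4.75% in heat-stressed plants, while in control plant 2 it had 0 of 4131 aldehyde oxidase counts, which allows a share of up to 0.0726%, and in the other control plants 0.0299% to 0.111%. None of these 4 shares overlapped between the groups, although Si033946m did so in CPM with TMM factors. The shares add up to the whole, so those of the other 4 are larger by construction where Si033914m, which makes up most of the sum, is lower.

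**Figure D3:**
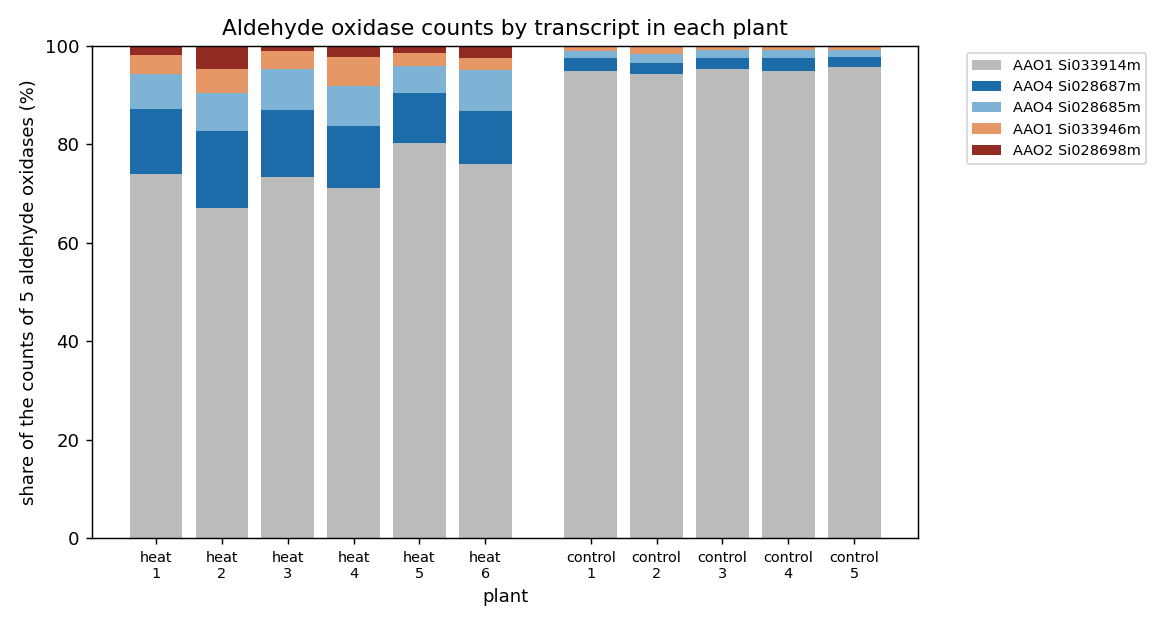
Share of the counts on the 5 aldehyde oxidase transcripts held by each of them, in percent, in 6 heat-stressed plants (left) and 5 control plants (right); each bar is a plant. Si033914m takes 67.0% to 80.3% in heat-stressed plants and 94.3% to 95.8% in control plants.

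The exchange between the AAO1 pair alone was seen in the log2 ratio of Si033946m to Si033914m counts, with 0.5 counts added to each. It was -4.31 ± 0.56 (SD, n = 6) in heat-stressed plants and -6.69 ± 0.47 (SD, n = 5) in control plants. The highest control plant, number 2 at -5.89, stayed below the lowest heat-stressed plant, number 6 at -5.00. Si033914m was the more counted of the pair in every plant.

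The sum of the 5 aldehyde oxidases followed the abundant transcript. It came to 109.5 ± 4.99 CPM (SD, n = 6) in heat-stressed plants and 253.6 ± 32.1 CPM (SD, n = 5) in control plants, a ratio of 0.432. Without Si033914m the sum of the other 4 was 28.8 ± 4.59 CPM in heat-stressed plants and 12.3 ± 0.790 CPM in control plants, 2.33 times as much. With library size only these ratios were 0.884 and 4.83, and the sums of the 5 then overlapped, with 146.4 to 163.9 CPM in heat-stressed plants and 120.2 to 231.9 CPM in control plants. Whether the total was lower thus rests on the scaling, while the sum of the other 4 stayed apart, with 29.2 to 53.8 CPM in heat-stressed plants and 6.90 to 10.6 CPM in control plants. Set against NCED1 in the same plant, which needs no scaling, the log2 ratio of summed aldehyde oxidase counts was -1.14 ± 0.12 (SD, n = 6) in heat-stressed plants and -0.23 ± 0.17 (SD, n = 5) in control plants, without overlap.

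Further ratios to NCED1 in the same plant were chosen after the values were seen. The log2 ratio of Si033914m to NCED1 counts was -1.58 ± 0.19 in heat-stressed plants and -0.30 ± 0.17 in control plants. That of ZEP to NCED1 was -7.43 ± 0.65 in heat-stressed plants and -10.05 ± 1.33 in control plants (SD, n = 6 heat-stressed and 5 control plants for both). For ZEP the groups overlapped, since control plant 4 at -7.91 exceeded heat-stressed plants 3 at -8.36 and 5 at -8.08.

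The spread between plants of the same group differed widely among the 7. It is given as a description, since a test of the heat comparison depends on that spread, and a transcript with a change as small as that of NCED1 could pass it only with a small one. NCED1 had an SD of log2 CPM of 0.09 in heat-stressed and 0.05 in control plants, and only 4.42% and 0.703% of all tested transcripts had a smaller one in those groups. ZEP had 0.66 in heat-stressed and 1.23 in control plants, with 94.1% and 98.5% of all tested transcripts below it, and its control values rest on 3 to 42 counts. AAO2 had 0.73 in heat-stressed and 1.02 in control plants, with 95.9% and 96.4% below it, and its control values rest on 0 to 10 counts. These ranks were not matched for count level, and NCED1 had 5526 to 17569 counts per plant. Counting error and differences between plants were thus not separated in them. The median tested transcript had an SD of 0.27 in heat-stressed and 0.32 in control plants. The AAO4 pair and Si033914m lay under that median in both groups, and Si033946m was above it in heat-stressed plants (0.45) and below it in control plants (0.29).

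ZEP and AAO2 were often highest or lowest in the same plant. Heat-stressed plant 2 had the highest value of both in its group and plant 3 the lowest, and control plant 4 was the highest of both in its group, but the lowest control plant was number 1 for ZEP and number 2 for AAO2. The log2 ratio of AAO2 to ZEP counts, with 0.5 counts added to each, was also chosen after the values were seen. This ratio was 0.68 ± 0.25 (SD, n = 6) in heat-stressed plants and -1.56 ± 0.98 (SD, n = 5) in control plants, without overlap. The control ratios rest on 0 to 10 AAO2 counts and 3 to 42 ZEP counts. In control plant 2, with 0 AAO2 counts, the value is set by the added 0.5 counts, so nothing is read from the gap. Over the 6 heat-stressed plants the log2 levels had a Pearson's r of 0.94 (exact permutation p = 0.00694, adjusted p = 0.146 over the 21 pairs of members) and a Spearman's rho of 0.83 (exact permutation p = 0.0583, adjusted p = 0.937). Without heat-stressed plants 3 and 5, the 2 farthest from the median of ZEP, r was 0.89 (n = 4). Plant 2, the highest of both, was kept. Among plants 1, 4 and 6, plant 1 had the highest ZEP level and the lowest AAO2 level, so this r turns on plant 2. The correlation of ZEP and AAO2 over the 6 plants did not pass the adjustment. By either measure 0 of the 21 pairs did so, with 1 pair at an unadjusted p under 0.05 for r and 0 for rho. All tests were 2-sided over 720 pairings, with a smallest possible p of 0.00139 for r and 0.00278 for rho. The AAO1 pair had an r of -0.74 (exact permutation p = 0.104, adjusted p = 0.616) and a rho of -0.71 (exact permutation p = 0.136, adjusted p = 0.937). Its r was -0.77 without plants 4 and 6, the 2 farthest from the median of Si033946m (n = 4). With only 5 control plants no correlation was computed there.

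**Figure D4:**
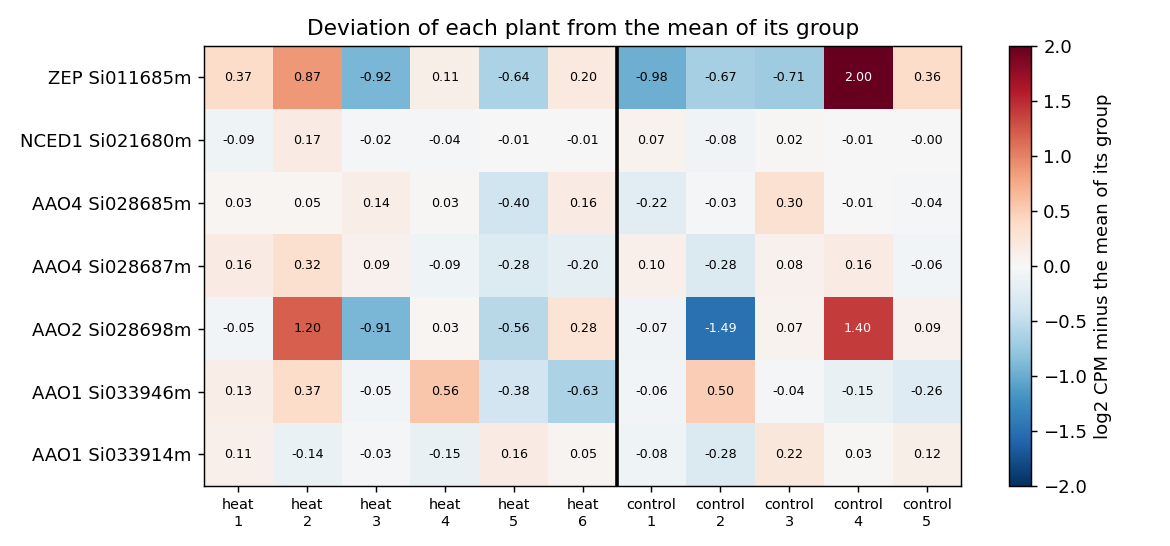
Log2 CPM of each transcript in each plant minus the mean of its group, for 6 heat-stressed plants (left) and 5 control plants (right); red is above and blue below the mean of the group. The row of NCED1 is close to 0 throughout, and those of ZEP and AAO2 share their highest plants, heat-stressed plant 2 and control plant 4.

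Among all tested transcripts, those with the pattern most like AAO2 over the 11 plants, by the root mean square difference of log2 CPM after subtracting each transcript's mean, were Si029717m (difference 0.48) and Si004364m (0.58). Si029717m had 46 to 146 counts in heat-stressed plants and 0 to 5 in control plants. Nearest to Si033914m were Si006948m (0.14) and Si008076m (0.16), with log2 fold changes of -1.48 (SE 0.12) and -1.54 (SE 0.09). The nearest member to AAO2 was ZEP, at 1.11, and the nearest member to Si033914m was NCED1, at 0.66. The subtracted mean is that over all 11 plants, so these distances include the difference between heat-stressed and control plants. For AAO2 they also rest on control values of 0 to 10 counts. The count files do not pair identifiers with names, and none of the 40599 identifiers matched the RefSeq gene table of *S. viridis*. The study's own annotation was not used for these 4 transcripts, which stay unnamed here.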

How the data were processed

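Libraries were strand-specific and depleted of rRNA. The authors used Trimmomatic for trimming, TopHat2 for alignment (genome of *S. italica*) and HTSeq, union mode, for counting; tool versions are not given in the sources used here. What they deposited are raw counts, and each plant has a file of read pairs and a file of single reads (22 files). Both were summed per plant. In 10 of the files of read pairs, further columns repeat the single-read counts and hold the sum of both, and they matched exactly. Lines for reads on no feature, ambiguous reads and reads with several places, 30.3% to 67.3% of all reads in a file pair, were left out. No 2 plants had identical counts.

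Counts were filtered with filterByExpr, scaled with TMM factors (1.33 to 1.50 in heat-stressed and 0.576 to 0.796 in control plants) and fitted over all transcripts with the quasi-likelihood test of edgeR 4.0.16 in R 4.3.3, in place of the DESeq package used by the authors, with Benjamini-Hochberg adjustment and a threshold of 0.05. SEs were derived from the log2 fold change and F. Correlations used log2 CPM with a prior count of 2 and exact permutation tests. Intervals and limits from a count of 0 (3 counts) cover counting error only. Spreads are those between the sampled plants, 1 library each. The same-numbered plants of both groups had a mean correlation of deviations of 0.0420, with 1 of 5 pairs above 0.1, and were treated as unpaired. Alternatives were other scaling factors, DESeq2 1.42.0, other filters, either read type alone, a block for plant number and each plant left out.

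The members and lists were chosen with earlier results of these data known. Named transcripts are the 7 members, the leaf markers with psbA among them, and the 2 nearest in pattern to AAO2 and to Si033914m. Identifiers of the leaf markers came from the photosynthesis groups of the study's annotation. Other transcripts of the ABA pathway were to be taken by name from the RefSeq gene table, which matched no identifier, and were not analysed here. The study's own annotation and drawing were not used to list them. No sequences are shown for the same reason.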

Additional observations from a re-analysis of the deposited data

Results flagged for a closer look

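In 4 of 36 sets of values (7 levels and 11 shares or ratios, in 2 groups each) 1 plant stood apart from the rest of its group by Dixon's test, which flags about 1 set in 20 by chance. Heat-stressed plant 2 had a log2 level of NCED1 of 8.08, with the next plant at 7.90. Heat-stressed plant 5 had a log2 level of AAO4 Si028685m of 2.63, below the next plant at 3.06. Control plant 2 had a log2 level of AAO1 Si033946m of 1.74, with the next control plant at 1.20, and Si033946m held 1.57% of its aldehyde oxidase counts, with the next control plant at 0.934%. It is also the control plant with 59.1% of reads aligned to several places and the fewest counts, and the part of these in its value was not tested. The value of ZEP in control plant 4, which moves the fold change of ZEP most, was not among the 4.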

How the results depend on the processing

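Under library size only, 13216 transcripts were higher and 1385 lower, and 1 member was lower. The log2 fold changes were then 2.87 for Si011685m, 0.76 for NCED1 Si021680m (the sign turned by construction of the scaling), 2.04 for Si028685m, 2.30 for Si028687m, 5.40 for Si028698m, 1.93 for Si033946m and -0.55 for Si033914m. With single reads only, 3004 transcripts were higher and 2792 lower, with 3 members higher and 1 lower, since ZEP and AAO2 failed the filter and NCED1 was at -0.21. The difference in the share of Si028685m was then 5.05 percentage points, that in the log2 ratio of Si033946m to Si033914m 3.08, and that in the ratio of ZEP to NCED1, chosen after seeing the data, 1.14. Requiring 10 counts in every plant left out ZEP and AAO2, gave 3 higher and 1 lower member, and moved NCED1 to -0.18. With no filter 1 member was lower. Leaving out 1 plant at a time put the log2 fold change of ZEP between 1.63 and 2.91. In those fits 5563 to 5742 of all tested transcripts were higher and 5100 to 5515 lower, and 5 members were higher and 2 lower each time. Plant number as a replicate block gave 5563 higher and 5119 lower transcripts and 5 higher and 2 lower members. The log2 fold change was then 2.05 for ZEP and -0.26 for NCED1. Since the heat comparison chose the members, nothing is read from their calls under any of these settings. The differences between same-numbered plants put the share of Si033914m at -21.9 percentage points. Of 84 alternative correlations 4 changed sign, namely Si021680m with Si028685m (-0.0044 with DESeq2 size factors) and, with single reads only, Si011685m with Si028685m (-0.25), with Si028687m (-0.022) and with Si033946m (-0.59). Of 469 alternative values 5 changed sign. Another 22 moved, by at least the pooled SD between plants for a fold change, share or ratio, or by over 1.5 times for a count. For correlations only the sign and the call were followed, not the size. Where no cause is given it was not tested. Depth limits ZEP and AAO2 in control plants.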
